A study of Mus musculus with 16 samples.

Results

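The exocrine pancreatic enzymes are described here as 10 transcripts measured in libraries that are labelled duodenal epithelium: the lipases Cel and Pnlip, the serine proteases Prss2, Ctrb1, Cela1, Cela2a and Cela3b, the carboxypeptidases Cpa1 and Cpb1, and the amylase Amy2a1. They were taken by name from the 2438 genes of the deposited table, which holds genes that the authors had listed as different between the study's groups. The choice therefore used this contrast, and the difference between groups is given as a description that supports nothing. Most of what follows is the proportions among the 10 within a library, which were also in view when the genes were chosen and are given as a description.

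The samples were 16 RNA sequencing libraries from mice on a high fat diet (HFD), a diet that makes mice obese. In 9 flox libraries (labelled F1 to F7, F9 and F10) the mice were fl/fl, with both Ephb4 alleles flanked by recombination sites and no deletion. In 7 KO libraries (KO1 to KO5, KO7 and KO8) the mice lacked EphB4, a receptor tyrosine kinase, in intestinal epithelial cells. The design text counts 9 flox and 7 KO mice, each 8 weeks old when a diet period of 19 weeks began, which matches 1 mouse per library. The recombinase line is not stated in the labels. Those labels name duodenal epithelium, while the design text names tissue of the proximal small intestine.

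Values are normalised counts, which are reads per gene divided by 1 size factor per library. Reads recovered from them in the listed genes ran from 4237178 to 5316273 in flox and from 3592468 to 4555872 in KO, and the total depth is unknown. Ephb4 was lower in KO (log2 difference -2.51, two-sided exact permutation p = 8.74e-05, the smallest that 11440 splits can give), and KO1 had the highest KO level at 84.7, below the lowest flox level of 103. Of 15 enterocyte markers 8 were listed, beside 14.8% of the 16488 genes that the authors adjusted over. Their summed level was 581734 to 825726 in flox and 381250 to 623138 in KO. No listed gene stood among 12 liver markers or 10 stomach markers. This does not show that they were absent, since an unlisted gene may have missed the authors' threshold or may not have been tested.

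Acinar cells of the pancreas make digestive enzymes, store them in zymogen granules and release them into ducts that empty into the duodenum. The proteases leave the cell as inactive precursors, and trypsin, once cut by the duodenal enzyme enteropeptidase, activates the others. The transcription factor complex PTF1, which binds a bipartite DNA site, drives many of these genes together with the nuclear receptor NR5A2.

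The promoters are shown because PTF1 is known to drive many genes of this kind. Whether it bears on the levels here was not tested. All 10 members matched RefSeq's promoter table (GRCm38.p6). In the 250 bases before each start site, 4 short motifs were searched on both strands, none of which overlapped another in these windows. They were CACCTG, the E-box part of the PTF1 site, TTTCCC, its TC-box part, TATAAA, the TATA box, and AAGGTCA, the core that NR5A2 binds. The 4 members whose window held both PTF1 parts come first, then Ctrb1, the most abundant member per length in the 6 libraries with most enzyme reads, and Pnlip, the main pancreatic lipase. Each runs 5′ to 3′, with the motifs in capitals.
Cela1 (chr15:100687921-100688170, minus strand): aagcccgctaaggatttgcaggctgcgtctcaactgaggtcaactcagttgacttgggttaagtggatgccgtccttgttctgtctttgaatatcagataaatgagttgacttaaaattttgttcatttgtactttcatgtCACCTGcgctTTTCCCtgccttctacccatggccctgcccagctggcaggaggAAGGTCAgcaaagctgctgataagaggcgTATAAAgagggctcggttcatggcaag
Cel (chr2:28563404-28563653, minus strand): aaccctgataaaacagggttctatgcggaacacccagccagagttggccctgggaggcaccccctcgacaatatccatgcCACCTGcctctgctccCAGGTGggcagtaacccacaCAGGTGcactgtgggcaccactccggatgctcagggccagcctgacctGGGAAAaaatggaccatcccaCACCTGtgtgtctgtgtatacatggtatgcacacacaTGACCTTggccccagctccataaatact
Prss2 (chr6:41521526-41521775, plus strand): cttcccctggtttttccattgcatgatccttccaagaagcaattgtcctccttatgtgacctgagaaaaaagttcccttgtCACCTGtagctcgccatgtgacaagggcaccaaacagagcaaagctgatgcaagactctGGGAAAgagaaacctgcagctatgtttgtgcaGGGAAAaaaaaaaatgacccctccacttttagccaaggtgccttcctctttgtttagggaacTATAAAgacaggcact
Cela2a (chr4:141826006-141826255, minus strand): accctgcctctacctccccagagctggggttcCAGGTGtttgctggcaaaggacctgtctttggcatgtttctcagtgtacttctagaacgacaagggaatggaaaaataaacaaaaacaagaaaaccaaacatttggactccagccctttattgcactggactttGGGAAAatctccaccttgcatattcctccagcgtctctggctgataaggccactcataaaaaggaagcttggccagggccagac
Ctrb1 (chr8:111691011-111691260, minus strand): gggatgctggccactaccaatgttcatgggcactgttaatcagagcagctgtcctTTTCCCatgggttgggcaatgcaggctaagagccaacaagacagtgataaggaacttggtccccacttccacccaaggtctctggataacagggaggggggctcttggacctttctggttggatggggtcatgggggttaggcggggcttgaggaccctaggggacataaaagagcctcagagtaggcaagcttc
Pnlip (chr19:58670115-58670364, plus strand): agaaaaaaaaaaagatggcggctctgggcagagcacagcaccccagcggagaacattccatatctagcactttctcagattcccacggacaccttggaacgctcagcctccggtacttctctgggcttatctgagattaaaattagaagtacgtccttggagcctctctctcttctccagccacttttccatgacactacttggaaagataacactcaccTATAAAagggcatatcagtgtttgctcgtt

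The E-box part was found in the windows of 6 of the 10 members (Cel, Cpb1, Cela3b, Cela2a, Prss2 and Cela1) and in 17.2% of all 32851 windows of this length in the table. The TC-box part was found in 6 (Cel, Cela2a, Cpa1, Prss2, Ctrb1 and Cela1) and in 21.9% of all windows. Both occurred in 4 members and in 3.61% of all windows. In Cela1 the first letters of these parts lay 10 bases apart, in Cel 21, in Prss2 59 and in Cela2a 134. The TATA box letters were found in 3 members (12.4% of all windows) and the NR5A2 core in Cel and Cela1 (4.08%). These matches describe letters, not bound sites, and a window without a match says nothing about the factor.

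The enzymes were abundant in 5 of the 9 flox libraries and nearly absent from the other 4 and from most KO libraries. The high libraries were F10, F6, F4, F9 and F7, in that order of their summed level, whereas F1, F2, F3 and F5 were as low as most KO libraries. Among the KO libraries KO7 held an intermediate level and KO1 a trace. Summed over the 10 genes without Cela1, which has a level of its own described below, F10 held 95880 normalised counts, F6 24787, F4 20955, F9 6822 and F7 4448. KO7 held 911 and KO1 241, and the other 9 libraries lay between 10.1 in KO3 and 82.8 in KO5. The sum in F10 was thus 21.6 times that in F7, and the sum in F7 was 4.88 times that in KO7. A bulk library cannot tell fewer acinar cells from less enzyme RNA per cell.

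**Figure D1:**
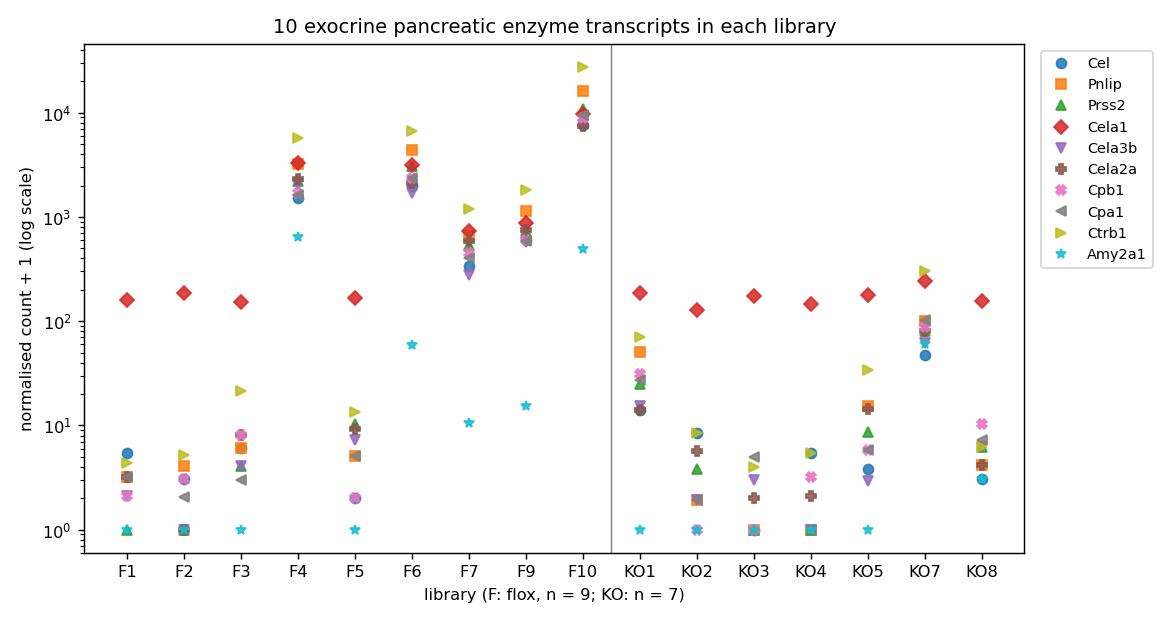
Normalised count plus 1 (log axis) of each of the 10 transcripts in every library, flox libraries to the left of the line and KO libraries to the right, 1 symbol per gene. F4, F6, F7, F9 and F10 sit far above the rest, KO7 lies between, and Cela1 (red diamonds) stays near 126 to 187 in every low library.

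As a share of all reads in listed genes, the 10 enzymes reached 1.92% in F10 (95% exact binomial interval 1.90 to 1.93). The share was 0.614% in F6, 0.454% in F4, 0.161% in F9 and 0.113% in F7. In KO7 it was 0.0322% (0.0305 to 0.0340) and in KO1 0.0129% (0.0119 to 0.0140), and in the other 9 libraries it ran from 0.00373% in F1 to 0.00681% in KO5. Intervals here and below cover counting error only and treat reads as independent. Reads copied by PCR are not independent molecules, so the intervals may be too narrow.

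Cel (chr2:28555795-28563403, minus strand, ENSMUSG00000026818; coordinates here and below are those of the deposited table, GRCm38) encodes the bile salt stimulated lipase that hydrolyses cholesterol and retinyl esters. Its normalised counts had a lowest value, median and highest value of 1.03, 340.4 and 7682 in flox and 0, 4.38 and 46.1 in KO. It stood at 7682 in F10, 1997 in F6, 1520 in F4, 602 in F9 and 340.4 in F7. The other flox libraries held at most 5.07 and the KO libraries other than KO7 at most 13.0, so the groups overlapped.

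Pnlip (chr19:58670365-58681786, plus strand, ENSMUSG00000046008) encodes pancreatic lipase, which splits dietary triglycerides. Its flox values ran from 2.21 through a median of 658 to 15969, and its KO values from 0 through 3.14 to 98.4. F10 held 15969, F6 4432, F4 3234, F9 1151 and F7 658. KO7 held 98.4 and KO1 49.96, both higher than the 2.21 to 5.07 of F1, F2, F3 and F5.

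Prss2 (chr6:41521787-41525079, plus strand, ENSMUSG00000057163) encodes a trypsinogen, the precursor of the protease that activates the other zymogens. Its flox values ran from 0 through 533 to 10793 and its KO values from 0 through 5.23 to 78.9. F10 held 10793, F6 3065, F4 2203, F9 735 and F7 533. No read was counted in F1, F2, KO3 and KO4, which allows up to 3.31, 3.12, 3.02 and 3.28 normalised counts, the worth of 3 reads in each.

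Ctrb1 (chr8:111686519-111691010, minus strand, ENSMUSG00000031957) encodes chymotrypsinogen B, which cuts after aromatic residues once activated. It was the member with the highest count in each of the high libraries, at 27361 in F10, 6679 in F6, 5684 in F4, 1810 in F9 and 1193 in F7. In KO7 it reached 300.4, in KO1 70.2 and in KO5 33.3, above the 3.31 to 20.3 of F1, F2, F3 and F5. No library was at 0.

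Cela2a (chr4:141814962-141826160, minus strand, ENSMUSG00000058579) and Cela3b (chr4:137420999-137430540, minus strand, ENSMUSG00000023433) encode chymotrypsin-like elastases of the pancreatic juice. Cela2a held 7444 in F10, 2324 in F4, 2106 in F6, 752 in F9 and 583 in F7, against 79.7 in KO7 and 13.3 or less in every other library. Cela3b held 7694 in F10, 2063 in F4, 1688 in F6, 569 in F9 and 278 in F7, against 60.3 in KO7 and 14.5 or less elsewhere. For both elastases, as for Cela1 and Amy2a1 below, F4 stood above F6, while for the lipases, Prss2, Ctrb1 and the carboxypeptidases F6 stood above F4.

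Cpa1 (chr6:30639218-30645363, plus strand, ENSMUSG00000054446) encodes a carboxypeptidase that removes aromatic and aliphatic residues from peptide ends, and Cpb1 (chr3:20248264-20275733, minus strand, ENSMUSG00000011463) one that removes basic residues. Cpa1 held 9479 in F10, 2374 in F6, 1615 in F4, 587 in F9 and 406 in F7, with 101 in KO7 and 26.1 in KO1. Cpb1 held 8970, 2388, 1677, 603 and 447 in the same flox libraries, with 86.8 in KO7 and 30.4 in KO1. Of the other libraries none exceeded 6.28 for Cpa1 or 9.42 for Cpb1.

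Cela1 (chr15:100674421-100687921, minus strand, ENSMUSG00000023031) encodes an elastase that is made outside the pancreas as well. It was the one member with a steady level in the low libraries, at 158 in F1, 187 in F2, 153 in F3 and 165 in F5. In KO it ran from 126 in KO2 through a median of 175 to 243 in KO7. Above that level it followed the others, with 9652 in F10, 3264 in F4, 3160 in F6, 875 in F9 and 736 in F7.

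**Figure D2:**
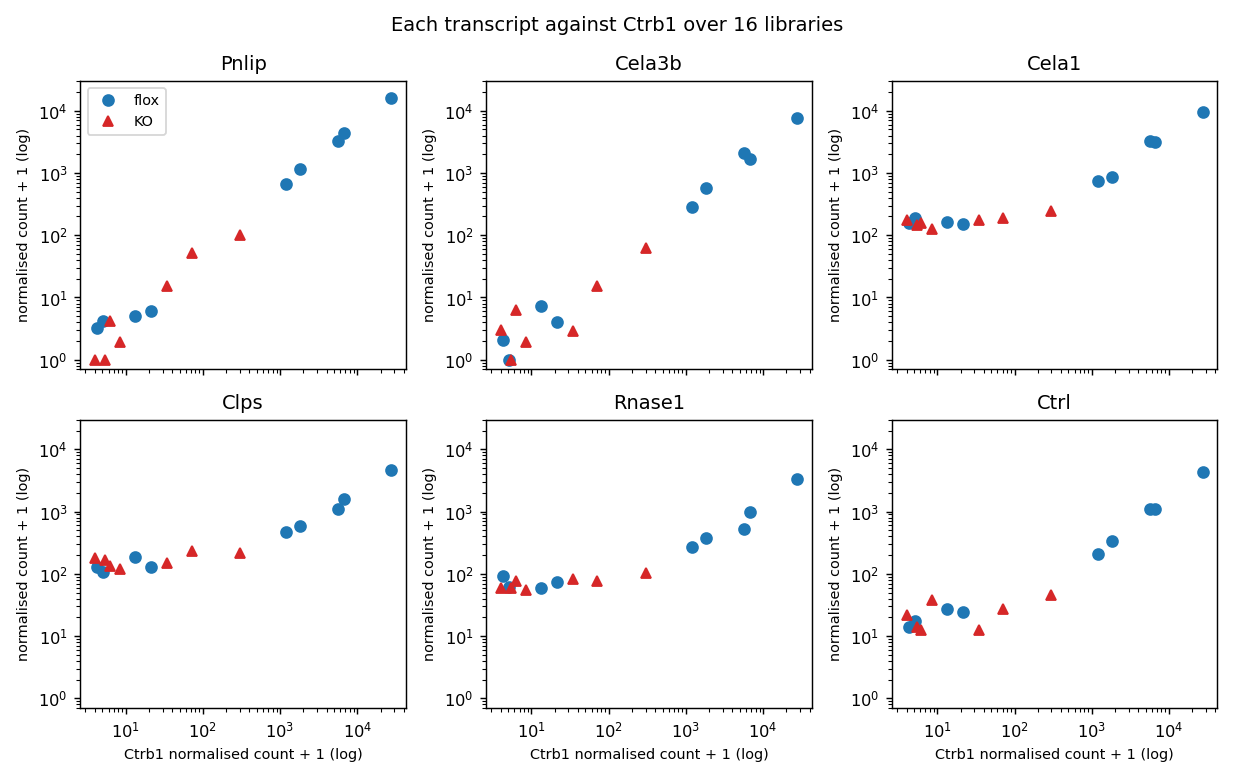
Normalised count plus 1 of 6 transcripts against that of Ctrb1 (both axes log), 1 point per library, circles for flox (n = 9) and triangles for KO (n = 7). Pnlip and Cela3b fall to near 0 as Ctrb1 falls, while Cela1, Clps, Rnase1 and Ctrl level off, Cela1 between 126 and 187 and Ctrl between 11.4 and 36.4 in the low libraries.

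Amy2a1 (chr3:113529403-113532428, minus strand, ENSMUSG00000070360) is annotated as a pancreatic amylase, an enzyme that digests starch, and did not follow the order of the others. It was highest in F4 at 636, then F10 at 488, KO7 at 59.4, F6 at 58.3, F9 at 14.4 and F7 at 9.56. It had no read in F1, F2, F3, F5 and KO1 to KO5, and 2.09 in KO8. Its groups overlapped too, since KO7 stood above F6, F7 and F9.

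Levels of different genes can be set side by side only per length, here as normalised counts per kilobase of the gene length in the deposited table. That length was 2306 bases for Cela1, 1723 for Cela2a and 1665 for Cela3b, where the longest annotated transcripts had 1108, 1070 and 976. For Ctrb1 (878), Prss2 (815) and Pnlip (1485 against 1487) the lengths were equal or nearly so. The places of the elastases therefore depend on the length used, and with transcript lengths they would stand higher. On the scale of the listed lengths Ctrb1 led in F10 with 31163, before Prss2 with 13243, Pnlip with 10754, Cpa1 with 5417 and Cela3b with 4621. Cela2a followed with 4320, Cela1 with 4185, Cel with 3651, Cpb1 with 2731 and Amy2a1 with 549. With the listed lengths the order Ctrb1, Prss2, Pnlip was the same in F4, F6, F7 and F9. Cpb1 and Amy2a1 took the last 2 places in all 5 of these libraries. In KO7 Ctrb1 led as well, at 342 per kilobase, but Cela1 (105) stood next and Prss2 (96.8) after it. Among all 2438 listed genes Ctrb1 held rank 9 per kilobase in F10, 27 in F6, 52 in F4, 156 in F9, 221 in F7 and 579 in KO7. Prss2 and Pnlip held ranks 19 and 27 in F10. The middle places, taken by Cela1, Cela2a, Cela3b and Cpa1, changed from library to library, so no order among these 4 held throughout, while Cel came next in all 5 flox libraries.

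The proportions among the members were read as each gene's share of their summed reads. All 16 libraries passed the minimum of 100 summed reads, 9 of them almost only through Cela1, whose share there ran from 68.1% in KO5 to 94.6% in KO3. With a minimum of 1000 summed reads 6 libraries remained (F4, F6, F7, F9, F10 and KO7), with 1302 to 95947 reads.

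**Figure D3:**
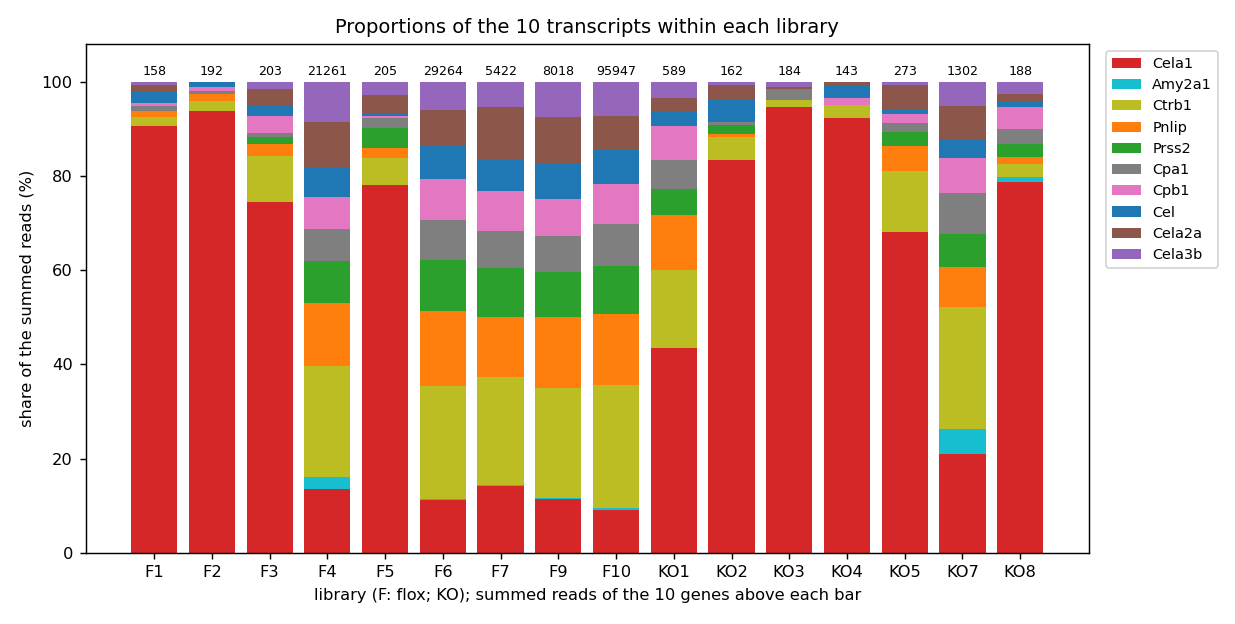
Share of each of the 10 genes in their summed reads (%), 1 stacked bar per library, with the summed reads above it. In F4, F6, F7, F9 and F10 Ctrb1 takes 23.0% to 25.9% of the bar. There Cela1 (red) runs from 9.15% in F10 to 14.2% in F7, and Amy2a1 (light blue) from 0.18% in F7 to 2.62% in F4. In the low libraries Cela1 fills most of the bar.

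Across those 6 libraries the make-up of the enzymes varied far less than their amount. Ctrb1 made up 23.5% of the summed reads in F4, 23.9% in F6, 23.0% in F7, 23.5% in F9, 25.9% in F10 and 26.0% in KO7. Its highest share was 1.13 times its lowest. Cpb1 ranged from 6.92% to 8.61% and Cpa1 from 6.67% to 8.98%. Prss2 ranged from 6.84% to 11.0%, Cela2a from 6.91% to 11.3% and Cela3b from 5.22% to 8.52%. Cela1 ranged from 9.15% in F10 to 21.0% in KO7. In KO7 Cela1, Amy2a1 and Ctrb1 had their highest shares, and Pnlip, Cel, Prss2, Cela2a and Cela3b their lowest. Pnlip stood there at 8.53% against 12.7% to 15.9% in the flox libraries, and Cel at 3.99% against 6.27% to 7.82%.

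The spread was still wider than the counting of independent reads gives. Reads copied by PCR would raise the counting error, so the small gaps, as for Ctrb1 and Cpb1, are uncertain. The log2 ratio of Ctrb1 to the other members had an SD of 0.10 over the 6 libraries, where counting error gives 0.05. For Cpb1 these values were 0.14 and 0.08, for Prss2 0.26 and 0.08, and for Pnlip 0.37 and 0.07. For Cela1 they were 0.48 and 0.05, and for Amy2a1 2.13 and 0.26. Amy2a1 thus had the widest spread of the members, from 0.18% of the summed reads in F7 to 5.15% in KO7.

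Without Cela1 and Amy2a1, 7 libraries held at least 100 reads of the other 8 enzymes, KO1 among them with 333. In the 5 flox libraries the share of Ctrb1 in these 8 differed at most 1.08-fold, that of Prss2 1.15-fold, Cel 1.18-fold, Pnlip 1.21-fold, Cpb1 1.22-fold and Cpa1 1.25-fold. The elastases Cela3b (1.62-fold) and Cela2a (1.68-fold) differed more. Over the same libraries the summed level without Cela1 differed 21.6-fold. In KO1 Pnlip took 20.7% of the 8 (95% exact interval 16.5 to 25.5) and in KO7 11.6% (9.60 to 13.7), with 14.8% to 17.9% in the flox libraries. Cel (5.41%) and Prss2 (9.26%) in KO7 also stood below the flox libraries, whose lowest shares were 7.48% and 10.8%. Cela3b (7.08%) and Cela2a (9.37%) in KO7 lay within the flox range, which was 6.27% to 10.2% and 7.80% to 13.1%.

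Ratios of related enzymes held more closely for some pairs than for others. Reads of Cel per read of Pnlip were 0.470 in F4, 0.451 in F6, 0.517 in F7, 0.523 in F9, 0.481 in F10 and 0.468 in KO7, and 0.261 in KO1 (18 against 69 reads). Reads of Cpa1 per read of Cpb1 lay between 0.910 in F7 and 1.06 in F10 among the flox libraries, at 0.857 in KO1 and at 1.16 in KO7. Reads of Cela2a per read of Cela3b were 2.10 in F7 and 0.968 to 1.32 in the other flox libraries. Cela1 per Ctrb1 was 0.353 in F10, 0.473 in F6, 0.574 in F4, 0.483 in F9, 0.617 in F7 and 0.808 in KO7, and 2.64 in KO1 (256 against 97 reads).

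Near-identical gene copies limit some of these counts. In the GENCODE M21 annotation of GRCm38, every window of 100 bases in the longest transcript of Cel, Pnlip, Prss2, Cela1, Cpb1, Cpa1 and Ctrb1 was found in no other gene. For Cela3b this held for 98.1% of windows and for Cela2a for 78.3%. For Amy2a1 it held for 5.44% of windows, the rest being shared with Amy1, Amy2b, other Amy2a copies and an amylase pseudogene. With windows of 50 bases the unique share was lower, at 92.2% for Prss2, 89.9% for Cela3b, 74.4% for Cela2a and 5.11% for Amy2a1. At that length Prss2 shared windows with Try4, Try5 and other genes. Cela2a shared them with Casp9 and with Ctrc, whose listed span overlaps that of Cela2a on the same strand. No source used here says how the authors' counting treated shared reads, so the level of Amy2a1 is uncertain and that of Cela2a partly so.

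The amylase copy that took most reads differed between libraries, but reads may have been split between copies, since 0% of the windows of Amy2a3, 52.6% of those of Amy2a5 and 88.6% of those of Amy2b were unique. Amy2a1 took 57.0% of the reads of the 4 listed amylase genes in F4 (95% exact interval 53.8 to 60.1) and 67.7% in KO7 (57.5 to 76.7). Amy2a5 took 73.5% in F6 (71.4 to 75.4). Amy2a3 took 84.1% in F7 and 61.6% in F9, and Amy2b took 44.3% in F10. Their sum was less uneven, with 196 amylase reads per 1000 Ctrb1 reads in F4, 276 in F6, 317 in F7, 101 in F9, 109 in F10 and 292 in KO7.

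**Figure D4:**
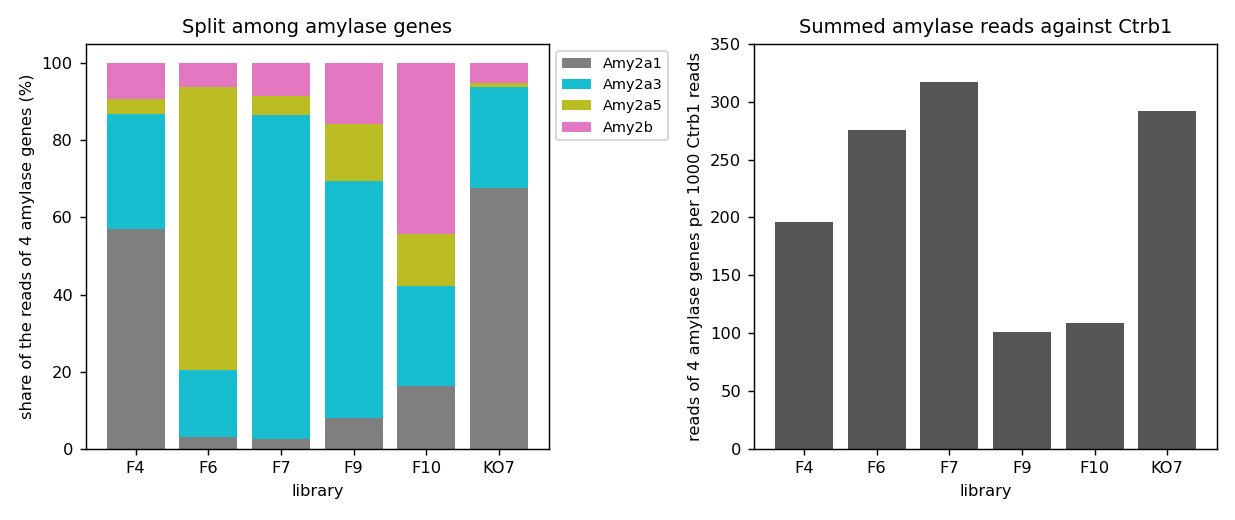
Left, share of Amy2a1, Amy2a3, Amy2a5 and Amy2b in the reads of the 4 genes (%), and right, their summed reads per 1000 Ctrb1 reads, for the 6 libraries with at least 1000 summed reads of the 10 enzymes. The leading copy changes from Amy2a1 in F4 and KO7 to Amy2a5 in F6, Amy2a3 in F7 and F9 and Amy2b in F10, while the sum stays between 101 and 317.

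Most other listed acinar genes were high in the same libraries as the members. Spink1 and Zg16, described below, did not follow this pattern, and some others followed it in part. Ctrc held 0.956 normalised counts in F7 and 2.90 in KO1, and Gp2 held 32.5 in F7 and 34.0 in KO1. Amy2a5 was highest in F6 (1354), with 405 in F10. Of 33 acinar enzymes and cofactors 23 were listed, all lower in KO, and so were 6 of 21 other acinar secretory or granule proteins, in a table selected on this contrast. Of the 16488 genes adjusted over, 14.8% were listed and 7.81% were listed as lower in KO. Among the genes outside the members, those whose log2 levels followed the members' mean most closely over the 16 libraries included Try4 (Pearson r 0.99), 2210010C04Rik (0.99), Amy2a3 (0.98), Amy2b (0.98), Pnliprp1 (0.97), Try5 (0.97), Sycn (0.97), Ctrl (0.96) and Cuzd1 (0.96). All of these stand on the acinar lists. These r values describe libraries that fall into a high and a low set and carry no p.

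Among the trypsinogens, Try4 held 5674 normalised counts in F10, 1506 in F6, 744 in F4 and 88.6 in KO7, and Try5 8703, 1250, 890 and 86.0. Reads of Try5 per read of Prss2 ran from 0.178 in F7 to 0.806 in F10 and reached 1.09 in KO7 and 1.30 in KO1. The windows of 100 bases of Try4 and Try5 were unique for 69.8% and 74.4% only, and those of 50 bases for 34.4% and 46.1%. Reads may therefore have been split between trypsinogen copies. Ctrl, a chymotrypsin-like protease whose windows were all unique, had 0.156 to 0.194 reads per read of Ctrb1 in those flox libraries, 0.150 in KO7 and 0.371 in KO1 (36 against 97 reads).

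A few acinar genes had a level in the low libraries too, as Cela1 did. Clps, the colipase that anchors pancreatic lipase on fat droplets, held 106 to 189 in F1, F2, F3 and F5 and 120 to 229.5 in KO, against 4691 in F10. Rnase1, a secreted ribonuclease, held 57.7 to 91.6 in those flox libraries and 55.1 to 101 in KO, against 3395 in F10. Spink1, a trypsin inhibitor that the intestine also makes, ran from 5253 to 11801 in flox and 3446 to 7480 in KO and was highest in F3, which held nearly none of the members. Zg16, which goblet cells express, ran from 37326 to 63087 in flox and 31479 to 46653 in KO.

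No gene of 8 acinar transcription factors and none of 10 pancreatic duct markers was listed. Of 19 islet markers Chga and Chgb were listed, granule proteins that enteroendocrine cells of the gut also make. Among all 16488 genes adjusted over, 14.8% were listed. A gene that is not in the table may have missed the authors' threshold or may not have been tested.

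Between the groups, the authors' deposited table gave log2 fold changes of KO over flox from -6.96 for Cel to -3.56 for Cela1, with a median of -6.50 over the 10 genes and -0.23 over all 2438 listed genes. The adjusted p of the authors' deposited table ran from 6.25e-05 for Cel to 0.0324 for Amy2a1, under its largest value of 0.0497. The 26 lowest fold changes in the authors' deposited table were all of genes on the acinar lists. All 10 members are lower in KO by this listing, as were 7.81% of the 16488 genes adjusted over, and since the choice used the listing nothing is read from that count.

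The same contrast on log2(normalised count + 1), fitted in limma over the 2339 listed genes whose mean reached 10, gave log2 differences from -4.58 ± 2.08 (SE) for Pnlip to -2.07 ± 0.85 for Cela1. Their median was -3.94, beside -0.25 over all tested genes. In limma 0 of the 10 passed an adjusted p of 0.05 (0.208 for Cela1 to 0.838 for Amy2a1), while 35.1% of all tested genes were called lower and 54.3% in either direction. Before adjustment 3 of the 10 stood under 0.05 in limma, namely Cela1, Pnlip and Cel, beside 2306 of all 2339 tested genes. Run on the recovered reads, edgeR found 6 of the 10 lower, with 35.1% of tested genes called lower. DESeq2 called all 10 lower, with 53% of tested genes called lower and 2112 of the 2339 called in either direction. edgeR called 0 of the 10 (9 at an unadjusted p under 0.05) once KO1 and KO3 were left out, where it called 10.6% of tested genes lower. With all libraries every one of the 2339 tested genes stood under an unadjusted 0.05 in edgeR, so such counts of members say little. The log2 differences in edgeR were about as large then, for example -6.69 in place of -6.89 for Cel and -3.59 in place of -3.56 for Cela1. No member separated the groups, since F1, F2, F3 and F5 lay within the KO range for each of them, or below it for Cela2a in F2, while 5.33% of listed genes had every flox library above every KO library.

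**Figure D5:**
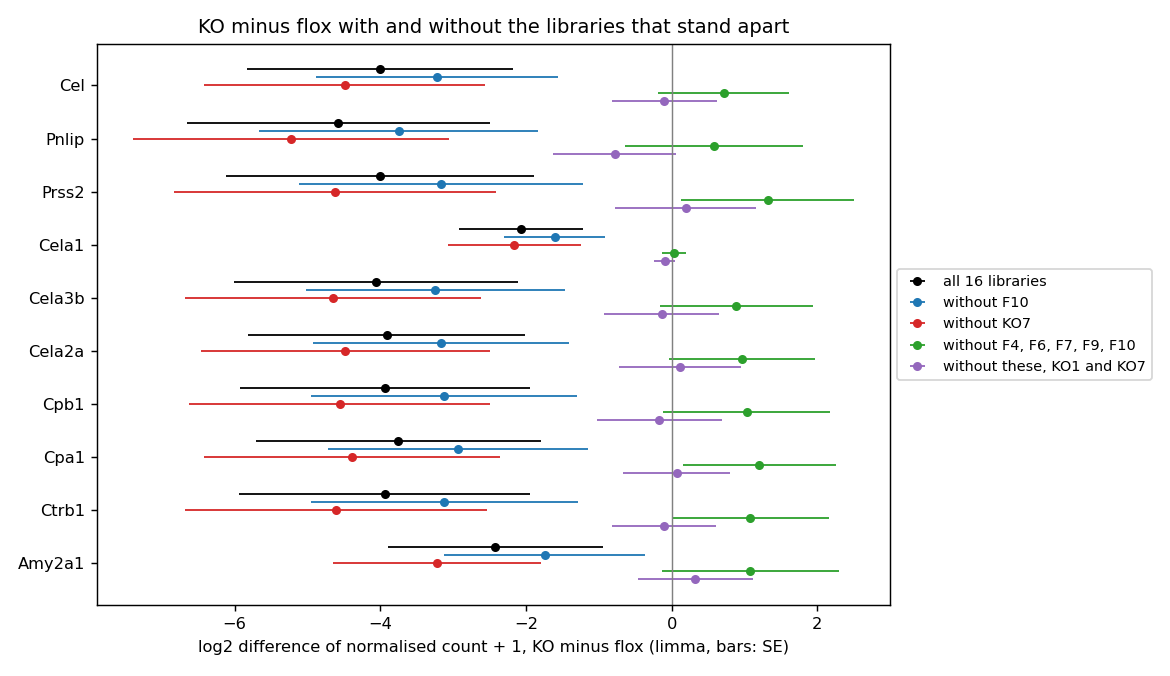
Log2 difference of normalised count plus 1, KO minus flox, for each member (points, limma; bars, SE) with all 16 libraries and with the named libraries left out. With all libraries the points lie between -4.58 and -2.07, and without F4, F6, F7, F9 and F10 they lie between 0.032 and 1.32.

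Without the 5 high flox libraries, a choice made after seeing the data, every log2 difference in limma was above 0, from 0.032 for Cela1 to 1.32 for Prss2. Those libraries were left out for their high levels while KO1 and KO7 were kept, so this direction follows from the choice and says nothing of the groups. Then 0 of the 10 passed in limma, 0 had an unadjusted p under 0.05, and 0.257% of tested genes were called lower. With KO1 and KO7 left out as well, 6 of the 10 differences were below 0, from -0.78 for Pnlip to -0.098 for Cela1, and 4 above 0, from 0.068 for Cpa1 to 0.33 for Amy2a1, again with 0 of the 10 passing or under an unadjusted p of 0.05 in limma, and with 0.171% of tested genes called lower. With 1 library left out at a time all 10 differences stayed below 0. Without F10 alone they ran from -3.75 for Pnlip to -1.60 for Cela1, with Ctrb1 at -3.12 in place of -3.94.

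Markers of other cells also differed between the libraries. Of 15 markers of stroma, endothelium and muscle 4 were listed, all higher in KO, with a summed level of 97.9 to 434 in flox and 166 to 1310 in KO. This sum was lowest in F10, the library with most enzyme reads, and was also low in F3 (110) and F1 (139), which held nearly none. It was highest in KO1, which held a trace of the enzymes. Of 18 lymphocyte and mast cell markers 6 were listed, all higher in KO, with sums of 629 to 1415 in flox and 703 to 2130 in KO. Of the listed markers in these lists only Lum had libraries at 0, which were F1, F3, F4, F7, F9 and KO3. The part of these markers in the enzyme levels was not tested.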

How the data were processed

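The members and gene lists were chosen with earlier results of these data known. The submitters' processing notes name the aligner HISAT2 2.0.5, the counter featureCounts 1.5.0-p3, the tool DESeq2 1.20.0 and the build GRCm38 (mm10), and no settings. The deposited signal was normalised reads: dividing it by the smallest step of its library gave whole counts, within 0.0001, for 100% of values. An automatic check could not test KO1 and KO3. The authors' deposited log2 fold changes and adjusted p-values were copied. The authors' p-values were adjusted over 16488 genes.

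limma 3.58.1 (trend, robust) was fitted on log2(normalised count + 1) for genes with a mean of at least 10, with two-sided p-values adjusted by Benjamini-Hochberg over 16488 genes and unlisted genes at a p of 1. On this scale fold changes of low genes come out too small. edgeR 4.0.16 (quasi-likelihood) and DESeq2 1.42.0 were run on recovered reads. All 3 were tested on simulated data with the same dispersion for every gene. No simulated gene was made with a few libraries far above the rest, as the members have. The simulation therefore does not show how the 3 tools behave on the members. Named genes are the 10 members, Ephb4, listed genes of the pancreas lists and the 10 non-members most correlated with the members' mean. One of these is not reported here. Marker genes of other cells and promoter motifs are described in addition. No batch is given in the labels. No 2 libraries of a group were duplicates (smallest chi-square per degree of freedom 16.1). Other settings are given at the end.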

Additional observations from a re-analysis of the deposited data

Results flagged for a closer look

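Of 22 groups of values tested for a sample far from the others (10 members and Ephb4, in flox and in KO), 18 held one. The members were chosen with these values known, and the rule was applied to unlogged counts, so this number is a description only. F10 stood apart for Ctrb1 (27361 normalised counts), Pnlip (15969), Prss2 (10793), Cela1 (9652), Cpa1 (9479), Cpb1 (8970), Cela3b (7694), Cel (7682) and Cela2a (7444). KO7 stood apart for Ctrb1 (300.4), Cpa1 (101), Cpb1 (86.8), Cela2a (79.7), Prss2 (78.9), Cela3b (60.3), Amy2a1 (59.4) and Cel (46.1). KO1 stood apart for Ephb4 (84.7). The members rise and fall together, so these are few independent events.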

How the results depend on the processing

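Pseudocounts of 0.5 and 10, other filters on low values, TMM and median-ratio scaling and non-robust moderation kept the sign of every member and the count of 0 members passing in limma. On recovered reads edgeR called 6 members and DESeq2 10. All listed genes called in limma numbered 1269, and 2112 in DESeq2 on recovered reads. With each library left out in turn 518 to 1462 listed genes and 0 members were called (1 to 9 members at an unadjusted p under 0.05), and the numbers were lowest without KO7 (518), F3 (615), KO5 (622), KO1 (646), F10 (646) and F4 (839). Without KO1, for example, 2211 of 2315 tested genes stood under an unadjusted 0.05 in limma. TMM scaling moved the median of all tested genes by 0.14 and turned the split of calls from 449 higher and 820 lower to 724 and 189, and median-ratio scaling to 648 and 328. Both scalings were computed over listed genes alone, which were selected as different between the groups. The split they give is therefore not that of a scaling over all genes, and no direction is read from it. With the replicate number as a replicate block 9 listed genes and 0 members were called, with member differences from -2.09 for Pnlip to -1.02 for Cela1. The numbers do not pair the libraries: correlations of deviations ran from -0.44 to 0.35 over 6 shared numbers, and 1 of 6 flox libraries correlated best with its own number. Settings chosen after seeing the data gave 11 listed genes without F4, F6, F7, F9 and F10, 8 without these and KO1 and KO7, and 380 in edgeR without KO1 and KO3. In the first of these the log2 differences were 0.72 for Cel, 0.58 for Pnlip, 1.32 for Prss2, 0.032 for Cela1, 0.89 for Cela3b, 0.97 for Cela2a, 1.03 for Cpb1, 1.21 for Cpa1, 1.08 for Ctrb1 and 1.08 for Amy2a1. In the second those of Prss2 (0.19), Cela2a (0.12), Cpa1 (0.068) and Amy2a1 (0.33) were above 0 and those of Pnlip (-0.78), Cpb1 (-0.17), Cela3b (-0.14), Ctrb1 (-0.11), Cel (-0.10) and Cela1 (-0.098) below. Both leave out libraries for their levels of these genes, which fixes the direction of the first. The cause of the other changes in counts was not tested. Ephb4 kept its sign and threshold in every setting, at -2.73 to -2.40 with 1 library left out. With a minimum of 1000 reads in place of 100, the median share of Cela1 fell from 71.3% to 12.4%, while those of the other 9 rose, that of Ctrb1 from 11.3% to 23.7%.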

Other observations

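Outside the acinar lists, the 3 listed genes that followed the members' mean most closely over the 16 libraries were Cbs, 1810028F09Rik and Rab43, named after their values were seen. Cbs, cystathionine beta-synthase (r 0.88), held 34.1 normalised counts in F10, 10.5 in F6, 10.3 in F4, 5.74 in F7 and 2.88 in F9, against 4.34 or less elsewhere. 1810028F09Rik (r 0.82) held 74.8 in F10, 29.6 in F6, 15.9 in F4, 11.5 in F9 and 5.74 in F7, against 7.73 in F1. Rab43, a small GTPase (r 0.82), held 355 in F10 and 118 to 259 in the other libraries.

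Of all 2438 listed genes, 68 had a highest flox library at least 5 times the flox median (taken as at least 1), and 27 of these stood on the acinar lists, all 10 members among them.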
